A study of Mus musculus with 8 samples.

Results

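Semaphorins, plexins, neuropilins, Slits, Robos, Ephs, ephrins, netrins and Unc5 receptors were followed in the kidneys of p53 null mouse embryos, each measured against wild-type kidney on the same array. The members were the probes whose RefSeq accession leads to a gene symbol of these families, which gave 97 probes for 66 genes among 41174 probes, of which 25097 could be named and stand for 17305 genes. Of the 66 genes, 54 had a probe bright enough to test, among 12000 tested genes. The symbol pattern also took in Unc50 and Unc5cl, which are not netrin receptors, so the families proper held 64 genes with 52 tested.

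Both groups were C57BL/6 embryonic kidneys taken at embryonic day 15.5, one genotype p53 null and the other p53 wild type. The sources used here do not give the null allele, the embryos behind each RNA or their sex. The series has 8 arrays of 2 colours, which formed 3 replicates, which the labels call biological. Slides were told apart only by the scan date in the file headers, and no slide number was read. On that basis replicate 1 filled slide 1 with 4 arrays, and replicates 2 and 3 shared slide 2 with 2 arrays each. Slide and scan date therefore cannot be told apart here. Dyes were swapped within each replicate. Each value is the log2 of null divided by wild type, so that a value below 0 is lower in null kidneys, and means carry the SD over the 3 replicates (n = 3).

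The wild-type signals of replicates 2 and 3 differed by 0.109 and 0.117 (scaled median absolute deviation, log2, for the respective dyes). This was close to the 0.114 and 0.11 between duplicate arrays of replicate 1, and the deposited files number the wild-type RNA of replicates 2 and 3 alike. The null signals of those replicates differed by 0.16 and 0.167, against 0.129 and 0.0835 between the duplicates. Replicates 2 and 3 may share 1 wild-type RNA, in which case an SD or p-value over the 3 replicates is too small. Trp53, the deleted gene, had ratios of −1.08, −0.47 and −0.45 on its brighter probe and lay below 0 on 8 of 8 arrays, while a dimmer probe gave 0.16 ± 0.13. Which of these probes lies in the deleted part is not known, so neither checks the labels fully. The kidney markers Pax2, Pax8, Wt1, Six2, Cdh16 and Lhx1 were well above background in both genotypes on 8 of 8 arrays.

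These families were first studied in axon steering and also shape kidneys and vessels. Slit proteins are secreted and bind Robo receptors; in the early kidney Slit2 and Robo2 limit the Gdnf domain so that a single ureteric bud forms. Class 3 semaphorins are secreted and act through neuropilins paired with plexins, whereas other semaphorins are mostly bound to membranes and bind plexins directly. Eph receptors and ephrins both sit on cell surfaces and signal on contact, and netrins bind Dcc, neogenin and the Unc5 receptors.

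Promoter windows from RefSeq (build GRCm38.p6, 250 bases before to 50 after a start) were found for 57 of the 66 genes, 71 windows in all. They are shown for the pair of Slit ligands with the lowest ratios, for the Slit receptor Robo1, and for Epha2, an Eph receptor described as a p53 target. Slit2, chr5:47982905-47983204 on the plus strand, and Slit3, chr11:35121206-35121505 on the plus strand, hold neither motif searched and are in lower case throughout. Capitals mark the 2 p53 half-sites in Robo1, chr16:72662899-72663198 on the plus strand, a window that also holds 2 ACGTG or GCGTG cores, left in lower case. In Epha2, chr4:141300971-141301270 on the plus strand, capitals mark ACGTG or GCGTG on either strand, the core bound by hypoxia-inducible factors.
Slit2: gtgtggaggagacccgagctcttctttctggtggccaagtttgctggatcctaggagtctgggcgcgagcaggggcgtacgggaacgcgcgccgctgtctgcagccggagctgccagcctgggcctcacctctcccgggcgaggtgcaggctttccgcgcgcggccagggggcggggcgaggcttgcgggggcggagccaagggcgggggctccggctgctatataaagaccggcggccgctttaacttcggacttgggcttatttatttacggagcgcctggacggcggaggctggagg
Slit3: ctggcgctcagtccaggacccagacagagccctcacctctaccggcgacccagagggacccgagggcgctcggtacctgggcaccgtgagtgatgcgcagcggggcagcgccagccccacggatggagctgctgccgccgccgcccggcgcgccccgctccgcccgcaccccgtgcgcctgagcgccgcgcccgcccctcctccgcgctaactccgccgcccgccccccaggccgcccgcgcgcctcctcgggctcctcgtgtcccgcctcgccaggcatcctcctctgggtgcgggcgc
Robo1: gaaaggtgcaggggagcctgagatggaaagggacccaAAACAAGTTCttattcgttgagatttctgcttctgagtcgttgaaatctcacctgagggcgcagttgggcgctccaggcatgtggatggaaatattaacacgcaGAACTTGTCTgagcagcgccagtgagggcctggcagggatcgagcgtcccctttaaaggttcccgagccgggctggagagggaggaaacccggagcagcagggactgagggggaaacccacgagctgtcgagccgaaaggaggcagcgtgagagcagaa
Epha2: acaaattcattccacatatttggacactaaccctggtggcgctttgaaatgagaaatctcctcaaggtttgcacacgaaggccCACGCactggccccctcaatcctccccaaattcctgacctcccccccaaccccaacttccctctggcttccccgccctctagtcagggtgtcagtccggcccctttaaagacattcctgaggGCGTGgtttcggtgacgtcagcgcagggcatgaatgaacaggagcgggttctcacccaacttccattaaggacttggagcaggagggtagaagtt
A p53 half-site lay in 5 of the 71 member windows (7.04%), against 8.36% of 32851 windows of all genes. The ACGTG or GCGTG core lay in 35 member windows (49.3%), against 43.8% of all windows. Both shares are descriptions of letters in a short window and say nothing of binding.

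No member passed the threshold of an adjusted p under 0.05 in limma over all 3 replicates, and 0.0% of the 12000 tested genes did. The lowest adjusted p among the members was 0.279. By sign alone, 18 of the 54 tested members (33.3%) were below 0 in all 3 replicates, against 19.7% of all genes tested. In the other direction 4 members (7.41%) were above 0 in all 3 replicates, against 20.4% of all genes. Of the 18 lower members, Epha2, Ephb2, Nrp1, Robo1, Sema3f, Sema4g, Sema5a, Slit3 and Unc5c had means below 0 in both dyes of every replicate. The rest did not, and this share over all genes was not analysed. Sema6b was below 0 on each array with the null RNA in Cy5 and above 0 on each in Cy3. On slide 2 Ntn1 had −0.21 and −0.38 in Cy5, but 0.05 and 0.28 in Cy3. With 1 value per slide, an alternative chosen after seeing the data, 22 members (40.7%) were below 0 on both slides, against 23.7% of all genes, and 4 (7.41%) above 0, against 23.6%; no gene passed the threshold in that fit either. With an unadjusted p under 0.05 there were 10 members lower (18.5%; all genes 8.93%) and 1 higher, Unc50 (1.85%; all genes 9.22%). The median ratio of the tested members was −0.10, and −0.10, −0.12 and −0.06 in replicates 1, 2 and 3, while the median of all genes lay at 0.00, −0.02, 0.02 and 0.03. Without loess normalization the median of all genes moved to 0.15 and that of the members to 0.02, which is −0.13 relative to all genes.

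**Figure D1:**
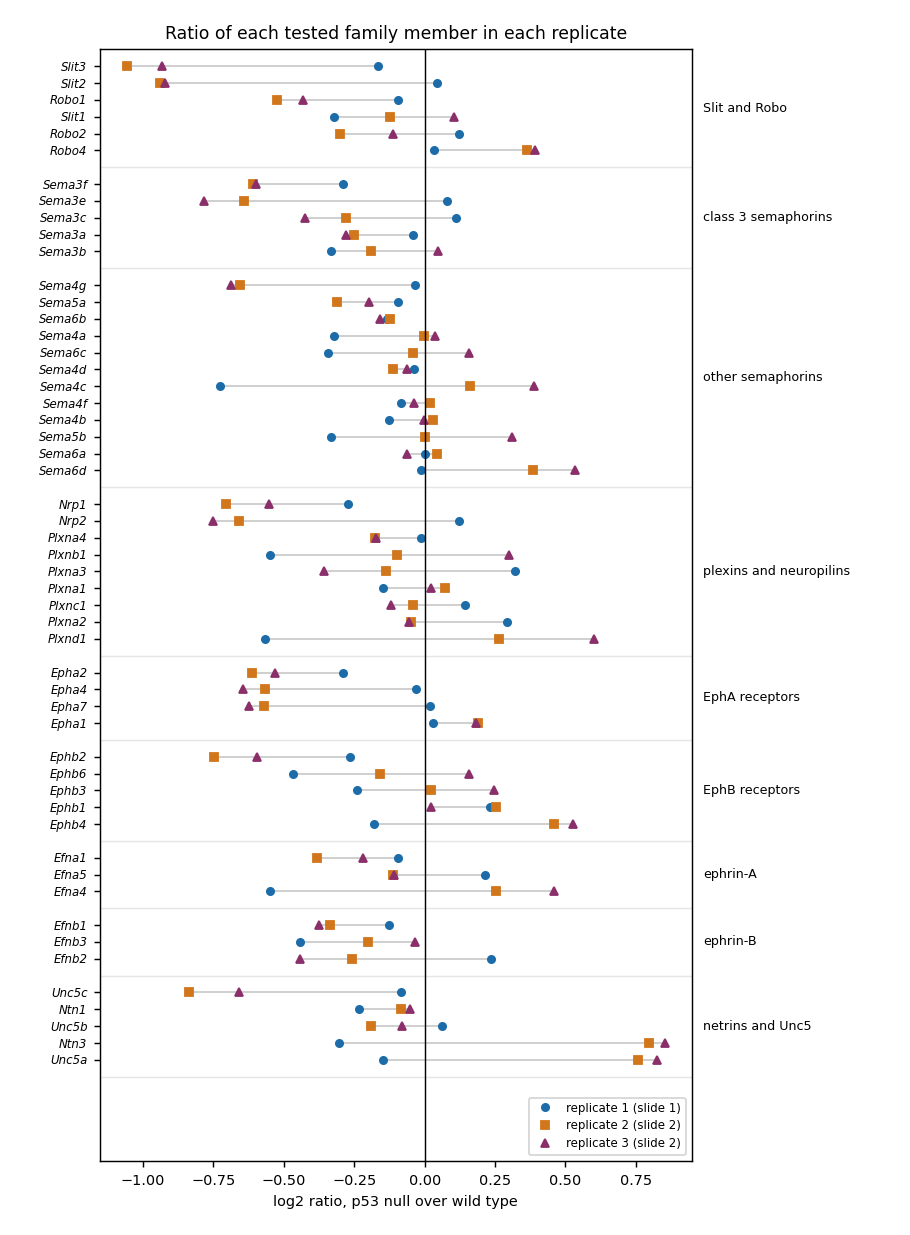
Each row is a tested member of the families, grouped by family, and each point is its log2 ratio (null over wild type) in 1 replicate; circles are replicate 1, squares replicate 2 and triangles replicate 3. Slit3 and Slit2 lie far to the left in replicates 2 and 3 and near 0 in replicate 1.

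Fitted without replicate 1, 22 members were called lower (40.7%; all genes 27.2%) and 11 higher (20.4%; all genes 32.9%) at an adjusted p under 0.05 in limma. That fit has 2 values which may share their wild-type RNA, so its p-values cover only the spread between these 2. The values of the replicates are therefore given side by side below. Each is a mean over both dyes, and in replicate 1 several members changed sign between the dyes. Among these were Efna1, Efnb1, Epha1, Epha4, Epha7, Sema3a, Sema3c, Sema3e, Sema6d, Slit2 and Unc5b. Of the members described, 22 were taken by the naming rule given with the processing, and 16 were chosen after their values were seen: Efna1, Efna4, Efnb2, Efnb3, Epha1, Epha7, Ephb4, Ntn1, Ntn3, Plxnb1, Plxnd1, Sema3a, Sema3c, Sema3e, Sema4c and Sema6d.

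**Figure D2:**
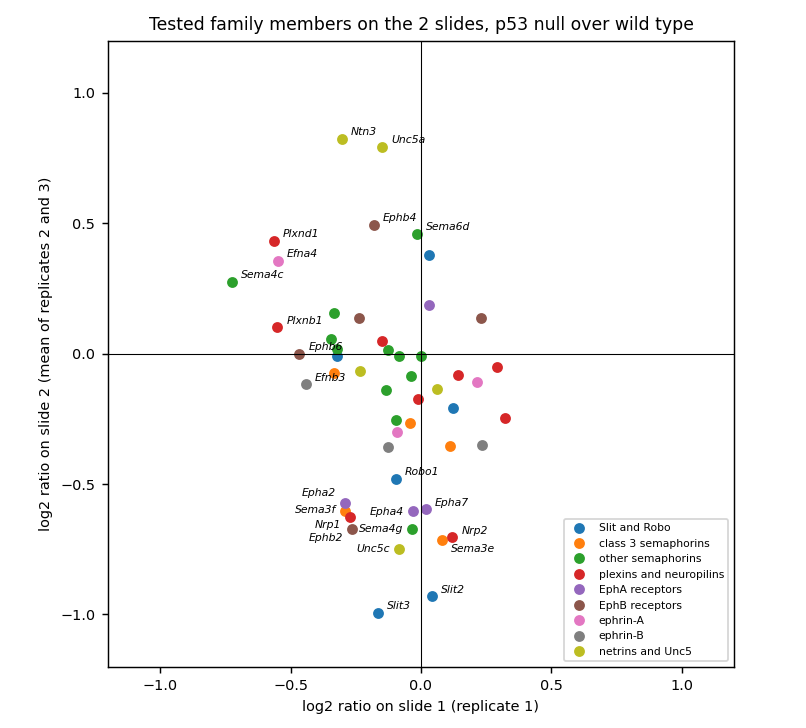
Each point is a tested member, coloured by family, with its log2 ratio on slide 1 (replicate 1) across and the mean of replicates 2 and 3 up. The 12 members lowest on slide 2, led by Slit3 at −0.99 and Slit2 at −0.93, lie between −0.29 and 0.12 on slide 1, and Sema4c, Plxnd1 and Efna4 sit at the upper left with opposite signs on the slides.

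Among the Slit ligands, Slit3 and Slit2 had the lowest mean ratios of the 54 tested members, each taken on its brightest probe. Slit3 had −0.16, −1.06 and −0.93 in replicates 1, 2 and 3 (−0.72 ± 0.48; limma, adjusted p = 0.279). It was below 0 on 8 of 8 arrays, from −0.01 to −0.30 on slide 1 and from −0.85 to −1.15 on slide 2, so the slides did not overlap. Slit2 had 0.04, −0.94 and −0.92 (−0.61 ± 0.56; limma, adjusted p = 0.299), with 1 array of replicate 1 missing because its spot was flagged. The other arrays of replicate 1 gave Slit2 0.21 with the null RNA in Cy5, and −0.14 and −0.11 in Cy3. A second Slit2 probe gave 0.15, −1.03 and −1.04 (−0.64), so both probes separated the slides in the same way. Slit1 differed from these, with −0.32, −0.12 and 0.10, and its signs were mixed.

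Of the Slit receptors, Robo1 was below 0 on 8 of 8 arrays, with −0.10, −0.53 and −0.43 (−0.35 ± 0.23; limma, adjusted p = 0.282). Robo2, the receptor that limits ureteric budding, had 0.12, −0.30 and −0.11 on its brighter probe (−0.10 ± 0.21). Its second probe was below 0 on 8 of 8 arrays, with −0.21, −0.55 and −0.31 (−0.35 ± 0.18; limma, adjusted p = 0.279), so the size for Robo2 depends on the probe. Robo4, the Robo of endothelium, went the other way with 0.03, 0.36 and 0.39 (0.26 ± 0.20; limma, adjusted p = 0.304). The 6 tested Slit and Robo genes had a median of −0.23, from −0.03 in replicate 1 to −0.41 and −0.27 on slide 2.

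**Figure D3:**
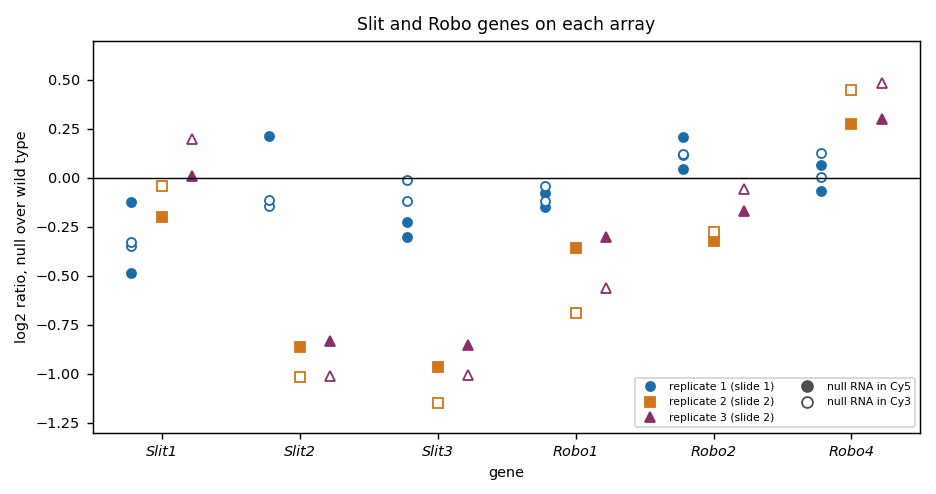
Each point is the log2 ratio of 1 array; colour and shape give the replicate, filled points carried the null RNA in Cy5 and open points in Cy3. On slide 2 Slit2 and Slit3 lie between −0.83 and −1.15 in both dyes, while Robo4 lies above 0 on all 4 of its arrays.

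Of 17 genes on the Slit and Robo partner list, which covers ureteric budding as well as Slit and Robo signalling, 15 were tested. Their median was 0.01, but −0.21 with the log ratio given in the scanner files. In all 3 replicates 3 were lower (20.0%; all genes 19.7%) and 2 higher (13.3%; all genes 20.4%). Gfra1, the co-receptor of Gdnf, had −0.17, −0.35 and −0.39 (−0.30 ± 0.12; limma, adjusted p = 0.279), and a second probe averaged −0.18. Gdnf itself had −0.23, 0.11 and 0.21. Sall1, a progenitor factor, had 0.01, −0.41 and −0.43, Gata3 of the ureteric tree 0.11, −0.63 and −0.71, and Eya1 0.42, 0.23 and 0.01. Gfra1 was thus lower in each replicate, Sall1 and Gata3 on slide 2, and Gdnf in replicate 1.

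The 5 tested class 3 semaphorins all had a mean below 0, as had 5904 of the 12000 tested genes, and their median was −0.20. In replicates 1, 2 and 3, 3, 5 and 4 of them were below 0, with medians of −0.04, −0.28 and −0.42. In all 3 replicates 2 were below 0, against 2368 of all genes. Without loess Sema3b had 0.03, which is −0.12 relative to all genes. Sema3f had −0.29, −0.61 and −0.60 (−0.50 ± 0.18; limma, adjusted p = 0.279) and was below 0 on 8 of 8 arrays. A dimmer Sema3f probe gave −0.44, 0.07 and 0.29 (−0.03), so that these probes share only the sign of replicate 1. Sema3e, which signals to Plxnd1 in vessels, had 0.08, −0.64 and −0.78 (−0.45), against 0.02, −0.12 and −0.22 (−0.11) on a second probe. Sema3c had 0.11, −0.28 and −0.42. Sema3a, which reaches vessels and ureteric buds through Nrp1, had −0.04, −0.25 and −0.28, and a second probe averaged −0.17. Sema3b, described as a p53 target, had −0.33, −0.19 and 0.05 (−0.16 ± 0.19).

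Both neuropilins were low on slide 2. Nrp1, a coreceptor for class 3 semaphorins and Vegfa, had −0.27, −0.70 and −0.55 (−0.51 ± 0.22; limma, adjusted p = 0.279) and was below 0 on 8 of 8 arrays. Nrp2 had 0.12, −0.66 and −0.75 (−0.43 ± 0.48; limma, adjusted p = 0.343), with the slides on opposite sides of 0. Plexins were mixed: Plxnd1 had −0.57, 0.26 and 0.60, and Plxnb1 −0.55, −0.10 and 0.30, with a second Plxnb1 probe at −0.04, 0.17 and 0.04. Plxna3, encoded on the X chromosome, had 0.32, −0.14 and −0.36 (−0.06 ± 0.35), and its second probe averaged −0.01.

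Among the 12 other semaphorins, 11 had a mean below 0, as had 5904 of the 12000 tested genes, and their median was −0.06. In replicates 1, 2 and 3, 11, 6 and 7 of them were below 0, with medians of −0.11, −0.001 and −0.02. Without loess the median over the replicates was 0.04, or −0.11 relative to all genes. Sema4g had −0.03, −0.65 and −0.69 (−0.46 ± 0.37; limma, adjusted p = 0.288). Sema5a had −0.09, −0.31 and −0.20 (−0.20 ± 0.11; limma, adjusted p = 0.304), and a second probe averaged −0.09. Sema6d had −0.01, 0.38 and 0.54. Its arrays on slide 2 had 0.75 and 0.84 with the null RNA in Cy5, but 0.02 and 0.23 in Cy3. Sema4c had −0.73, 0.16 and 0.39. A second Sema4c probe gave −0.59, 0.15 and 0.59, which changes the sign of its mean but not the contrast of the slides.

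EphA receptors had a median of −0.40 over 4 tested genes, from −0.01 in replicate 1 to −0.57 and −0.58 on slide 2. Epha2 had −0.29, −0.61 and −0.53 (−0.48 ± 0.17; limma, adjusted p = 0.279) and was below 0 on 8 of 8 arrays. Epha4 had −0.03, −0.57 and −0.64 (−0.41 ± 0.33; limma, adjusted p = 0.289), and a second probe −0.08, −1.39 and −1.28 (−0.91 ± 0.73). Both Epha4 probes separated the slides, the second by more than the first. Epha7 had 0.02, −0.57 and −0.62, yet a dimmer probe gave 0.22, 0.00 and 0.08. Epha1 had 0.03, 0.19 and 0.18.

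EphB receptors did not share a direction, with a median of 0.01. Ephb2 had −0.27, −0.75 and −0.59 (−0.54 ± 0.25; limma, adjusted p = 0.279) and was below 0 on 8 of 8 arrays. Its second probe gave −0.37, −0.29 and −0.01 (−0.22 ± 0.19). Ephb4, the venous receptor of Efnb2, had −0.18, 0.46 and 0.53, and Ephb1 had 0.23, 0.26 and 0.02 (0.17 ± 0.13; limma, adjusted p = 0.359) with no array below 0.

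The 3 ephrin-B ligands had means below 0, as had 5904 of the 12000 tested genes. Without loess Efnb1 had 0.01 and Efnb2 0.10, or −0.14 and −0.06 relative to all genes. X-linked Efnb1 had −0.13, −0.34 and −0.38 (−0.28 ± 0.13; limma, adjusted p = 0.279), but it changed sign between dyes in replicate 1. Efnb2, the arterial ligand of Ephb4, had 0.23, −0.26 and −0.44, but a second Efnb2 probe gave −0.08, 0.01 and −0.07 (−0.05), without that contrast. Efnb3 had −0.44, −0.20 and −0.03. Among ephrin-A ligands, Efna1 had −0.09, −0.38 and −0.22, and Efna4 had −0.55, 0.25 and 0.46.

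For the netrins and their receptors, Unc5c had −0.08, −0.84 and −0.66 (−0.53 ± 0.39; limma, adjusted p = 0.283) and was below 0 on 8 of 8 arrays. Unc5a, described as a p53 target, had −0.15, 0.76 and 0.83 (0.48 ± 0.54; limma, adjusted p = 0.345), so its slides lay on opposite sides of 0. Unc5b, also described as a p53 target, had 0.06, −0.19 and −0.08 (−0.07 ± 0.13). Ntn3 had −0.30, 0.80 and 0.85, and Ntn1 had −0.23, −0.08 and −0.05. Of the name matches outside the families, Unc50 had 0.16, 0.74 and 0.54 (0.48 ± 0.29; limma, adjusted p = 0.279) and lay above 0 on 8 of 8 arrays.

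The other 16 tested members had mean ratios between −0.16 and 0.23 on their brightest probes. They were Efna5, Ephb3, Ephb6, Plxna1, Plxna2, Plxna4, Plxnc1, Sema4a, Sema4b, Sema4d, Sema4f, Sema5b, Sema6a, Sema6b, Sema6c and Unc5cl. No probe of Efna2, Epha10, Epha3, Epha5, Epha6, Epha8, Ntn4, Ntn5, Plxnb3, Sema3d, Sema7a or Unc5d was tested. Members without a named probe, such as Plxnb2 and Robo3, were not analysed here. Of 16 members with more than 1 tested probe, 4 (Epha7, Plxna2, Plxnb1 and Sema4c) had probes whose means differed in sign. Plxna2 averaged 0.06 on its brightest probe and 0.01 on another. Its dimmest tested probe had −0.32, −0.37 and −0.19 (−0.29 ± 0.09, limma, adjusted p = 0.279) and was below 0 on 8 of 8 arrays.

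Of 67 signalling partners of these families, coreceptors and integrins among them, 60 were tested, and their median was 0.01. In all 3 replicates 11 were lower (18.3%; all genes 19.7%) and 8 higher (13.3%; all genes 20.4%). With an unadjusted p under 0.05 there were 5 lower (8.33%; all genes 8.93%) and 2 higher (3.33%; all genes 9.22%). Gab1, an adaptor of receptor kinases, had −0.20, −0.63 and −0.56 (−0.46 ± 0.23; limma, adjusted p = 0.279). Itga1, an integrin subunit, had −0.23, −0.29 and −0.36, and Erbb2, a coreceptor of plexin-B, −0.38, −0.32 and −0.16. Limk2, a kinase of cofilin, had −0.14, −0.49 and −0.44. Second probes of Erbb2 and Limk2 averaged −0.10 and −0.08.

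Several marker lists also differed between the slides. The 15 hypoxia genes, such as Slc2a1 and Bnip3, had a median of −0.04 on slide 1, and of −2.14 and −2.29 in the replicates of slide 2, with single means from −2.39 to −0.30. The 11 tested endothelial markers had −0.02, 0.41 and 0.63, with means from −0.37 to 0.56. The 7 tested macrophage markers had −0.02, 0.48 and 0.58, with means from 0.12 to 0.75. The 9 tested nerve and glia markers had 0.04, 0.28 and 0.21, and the 7 tested podocyte markers −0.27, 0.15 and 0.25. Nephron progenitor markers (9 tested) had −0.05 in each replicate, with means from −0.45 to 0.24. That median was the value of Pax2 each time, and other progenitor markers differed between the slides in either direction. Six2 had −0.02, −0.45 and −0.46, and Cited1 −0.23, 0.45 and 0.52. Ureteric epithelium markers (10 tested) had −0.16, −0.08 and 0.02, with means from −0.44 to 0.20. The 13 stromal markers had medians below 0 on both slides, with −0.34, −0.23 and −0.27, and means from −0.54 to 0.26. Of these means 12 were below 0, against 5904 of all 12000 tested genes. In all 3 replicates 7 of the 13 were below 0, against 2368 of all genes. Tcf21, the marker with a mean above 0, had −0.45, 0.55 and 0.68. The part of these lists in the members' ratios was not tested, and in whole kidneys fewer cells of a type and less RNA per cell cannot be told apart. Xist, which is expressed from the inactive X, was well above background on 8 of 8 arrays in wild type and on 2 in null, and its part in the ratios of Efnb1 and Plxna3 was not tested.

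**Figure D4:**
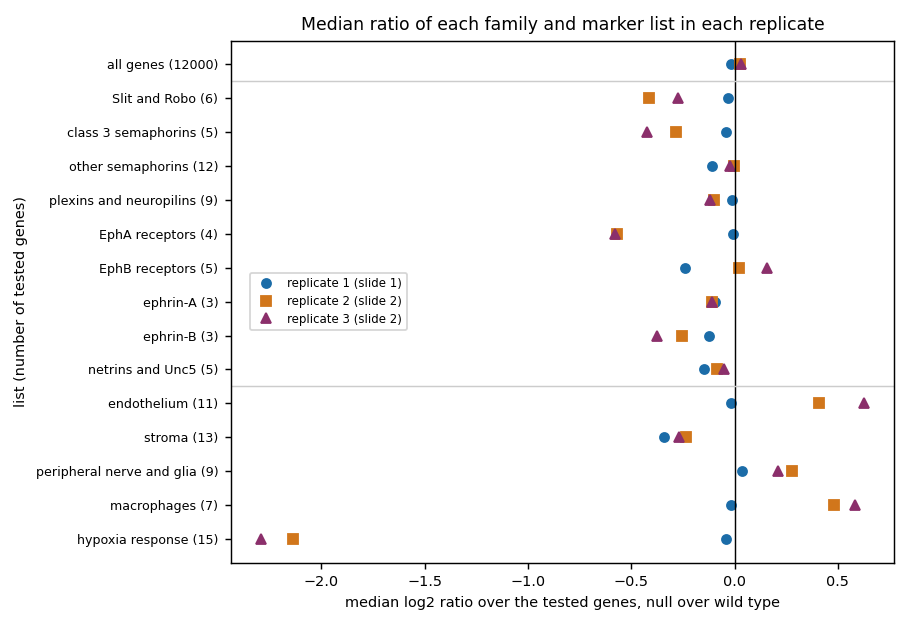
Each row is a family or marker list with its number of tested genes, and each point is the median log2 ratio of that list in 1 replicate; circles are replicate 1, squares replicate 2 and triangles replicate 3. The hypoxia list lies at −2.14 and −2.29 on slide 2 and at −0.04 on slide 1, a wider gap than that of any family.

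Without loess, relative to the median of all genes, the family medians were −0.24 for Slit and Robo, −0.30 for class 3 semaphorins, −0.35 for EphA, −0.14 for ephrin-B, −0.11 for other semaphorins, −0.07 for plexins and neuropilins, −0.10 for netrins and Unc5, 0.03 for EphB and 0.09 for ephrin-A.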

How the data were processed

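RNA of null and wild-type kidneys was co-hybridised on 8 Agilent arrays after direct dye labelling, per the labels' protocols. The authors deposited scanner files with linear intensity for each spot and its background, made per the file headers by version 10.5.1.1 of Agilent Feature Extraction, whereas the submitters' processing notes name version 6.1. The deposited log10 ratios and the deposited value table agree after turning the sign; its column medians were 0.00829, −0.00244, 0.00423 and 0.00154 in replicate 1, 0.000833 and 0.00638 in replicate 2, and 0.00645 and 0.0111 in replicate 3, and scale, centring and direction are known.

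Median signals were corrected with normexp (offset 50), in place of the mean signals first planned, which were not analysed here, and normalized by loess within each array in limma 3.58.1 (R 4.3.3). An offset of 50 shrinks the ratios of dim probes. The 1639 control spots had no weight, and spots flagged as outliers were left out. Dye orientations were averaged within a replicate, and the 3 values were tested against 0 with limma, two-sided, with Benjamini-Hochberg adjustment over 20865 probes. Testing needed null or wild-type signal well above background on 50% or more of every replicate's arrays. The brightest tested probe stands for a gene. Names come from RefSeq accessions in a GRCm38.p6 annotation, while the array design is built on mm9, so no gene coordinates are given; promoter windows carry their own. The fit was run on simulated data with 3 independent values per probe. The simulation had no slide effect and no shared wild-type RNA, so it does not cover these features of the design.

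The naming rule took the Slit and Robo genes, up to 3 members of each family with 1 sign in all replicates and dyes and the largest ratio, members with an unadjusted p under 0.05, members described as p53 targets, X-linked members and neuropilins, and of each partner list the 4 genes with the smallest p. The members and lists were chosen with earlier results of these data known. Having only 3 replicates on 2 slides limits the precision, and replicates 2 and 3 may share 1 wild-type RNA.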

Additional observations from a re-analysis of the deposited data

How the results depend on the processing

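No probe passed the threshold in 3 replicates, nor with 1 value per slide, an alternative chosen after seeing the data. With an unadjusted p under 0.05 limma gave 10 members lower (18.5%, all genes 8.93%) and 1 higher (1.85%, all genes 9.22%). With the replicate as a random effect 968 probes and 4 members passed (7.41%; all genes 5.18%), and with the slide as a block 8533 probes and 32 members (59.3%; all genes 43.2%). Leaving out 1 replicate gave 0 to 11699 probes, 0 to 33 members, 20 to 30 members lower and 4 to 15 higher in every replicate kept; the highest values came without replicate 1, a fit of slide 2 alone, where the members' shares were 61.1%, 55.6% and 27.8% and those of all genes 60.1%, 39.3% and 46.3%. The cause was not tested. With the log ratio given in the scanner files the median of the members was −0.249, or −0.253 relative to all genes. Class 3 semaphorins then had a median of −0.47 and other semaphorins −0.24. Median centring without loess moved the median of all genes to 0.15 and that of the members to 0.025. With it 7 members were higher in every replicate (13.0%, all genes 17.8%) and 14 lower (25.9%, all genes 9.15%).

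That common shift also put Sema5a (0.049), Efnb1 (0.012), Sema3b (0.034), Unc5b (0.051), Plxna3 (0.11), Efnb2 (0.098), Sema4c (0.11) and Plxnb1 (0.079) above 0; relative to all genes these 8 lay between −0.14 and −0.04. With 1 value per slide, and with the slide as a block, Plxna3 had 0.037, Efna4 −0.096 and Plxnd1 −0.066. Arrays with the null RNA in Cy3 gave Sema4c 0.027 and Ntn1 0.014; those in Cy5 gave Efna4 −0.064, Sema3a 0.0071 and Plxnd1 −0.034. Leaving out 1 replicate, Robo2 ranged from −0.21 to 0.0048, Efna4 from −0.15 to 0.36, Plxna3 from −0.25 to 0.092, Sema4c from −0.28 to 0.28, Plxnb1 from −0.32 to 0.10 and Plxnd1 from −0.15 to 0.43. Each array sets null against wild type, so every ratio is already paired within its replicate.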
